A study of Mus musculus with 12 samples.

Results

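Cells keep peroxides and electrophiles in check with a set of thiol enzymes, and 50 genes of this set were followed here across mouse pancreatic acini and 2 kinds of pancreatic organoid. They are the genes whose platform symbol begins with Gst (glutathione transferases), Gpx and a digit (glutathione peroxidases), Prdx and a digit (peroxiredoxins) or Txn1, Txn2, Txnrd or Txnip (the thioredoxin system), together with Gclc, Gclm, Gsr, Gss, Nqo1, Hmox1, Srxn1, Cat, Sod1, Sod2, Nfe2l2 and Keap1. They were picked by symbol among the 18194 genes that had a probe set with a single symbol on the array, and 90 probe sets carried them. Each gene was represented by its brightest probe set, taken as the mean over all 12 arrays. A gene was tested when its probe set exceeded, on 4 or more of the arrays, the level under which 30% of that array's probe sets stay (the 30th percentile below), a condition met by 49 of the 50 genes and by 14991 genes in all. The remaining gene, Gstt4, gave 3.17, 4.98, 3.79 and 4.44 on Acini arrays A to D and 2.66 to 3.07 on the Ducts and yDucts arrays, below the percentile on every organoid array.

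The study asked whether transient YAP activity turns exocrine acinar cells into cells that grow like duct progenitors. Acini were freshly isolated from the pancreas of young adult mice. Ducts were organoids grown from native pancreatic duct fragments. yDucts were duct-like organoids that arose from acini of R26-rtTA; tetO-YAP S127A mice, in which doxycycline switches on a YAP that cannot be restrained by one of its inhibitory phosphorylations, and they were then kept without doxycycline. The rtTA activator sits at the ubiquitously active Rosa26 locus, so the transgene is not limited to acinar cells by its promoter. In other mice the study labelled acinar cells with Ptf1a-CreERTM and reported labelled yDucts, while organoids from native ducts were never labelled. It also reported that YAP did not change the organoid-forming ability of native duct progenitors. The sources used here do not name the genotype of the mice that gave Acini and Ducts on these arrays. Ducts and yDucts shared 1 culture (Matrigel, Advanced DMEM/F12, B27, gastrin, EGF, Noggin, FGF10, nicotinamide, R-Spondin1 and N-acetylcysteine), which Acini never saw, so that culture and cell identity cannot be told apart in any comparison with Acini. N-acetylcysteine is itself a thiol antioxidant and a source of cysteine for glutathione. Each group had 4 arrays, A to D, named biological replicas in the labels. Whether the 4 came from separate mice or separate cultures is not stated, so that p-values measure the spread between arrays, which may be partly technical.

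Glutathione is made from glutamate, cysteine and glycine by glutamate-cysteine ligase (catalytic subunit Gclc, modifier subunit Gclm) and glutathione synthetase (Gss), and glutathione reductase (Gsr) returns its oxidised form to the reduced one with NADPH. Glutathione peroxidases spend it on peroxides and glutathione transferases join it to electrophiles, while thioredoxin, kept reduced by thioredoxin reductases, serves the peroxiredoxins. Many of these genes are targets of NRF2 (gene Nfe2l2), a transcription factor that KEAP1 holds at low levels until electrophiles modify it.

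All values are log2 RMA levels, in which 1 unit is a factor of 2, and levels of different genes are not compared, since each probe set has its own brightness. A gene was called higher or lower at an adjusted p under 0.05 from limma across all 14991 genes. On whole arrays, the 4 Acini correlated with each other at 0.941 to 0.962, the Ducts at 0.959 to 0.995 and the yDucts at 0.990 to 0.997. Ducts arrays C and D formed the closest Ducts pair. The 3′ probe set of Gapdh exceeded its 5′ probe set by 1.29 to 1.91 on Acini and by -0.17 to 0.02 on organoid arrays, a measure of how intact and how fully copied the RNA was, and its part in the differences from Acini was not tested. Acinar markers marked Acini well and were lower in both organoids (8 of 8, log2 summed level 16.5 to 16.6 in Acini against 6.64 to 7.83 in Ducts and 7.99 to 8.22 in yDucts). The smallest fall was -5.90 in Ducts and -2.81 in yDucts. Between the organoids, 1 of the 8 was called higher in yDucts, and the largest difference was 3.74. Of 8 listed duct markers 6 were measured, and 3 (Krt19, Krt7 and Car2) were higher in each organoid group. Onecut1 was lower in Ducts (-1.07) and was not called in yDucts (-0.44). Of the 6, 2 were not called in Ducts and 3, with Onecut1, in yDucts. Acini also held more RNA of other pancreatic cells: all 5 endothelial, all 5 stromal and all 4 measured islet markers were lower in both organoids, as were 5 of 6 macrophage markers, both tested red blood cell markers and the 1 tested fat marker. The sixth macrophage marker, Cd68, was called higher in both (1.41 and 1.26). Their log2 summed levels ran from 9.39 to 9.92 (endothelial), 11.6 to 12.5 (stromal), 11.7 to 12.3 (islet) and 9.0 to 9.86 (macrophage) in Acini, against 5.82 to 6.08, 5.66 to 5.98, 5.69 to 5.98 and 6.91 to 7.84 over both organoid groups. In bulk arrays fewer cells of a type and less RNA per cell cannot be told apart, and the part of these other cells in the lower levels reported for organoids was not tested.

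Of the 49 tested antioxidant genes, 22 were higher in Ducts than in Acini and 14 were lower. Across all genes tested, 42.7% were called higher and 33.1% lower in this comparison, and the antioxidant genes, with 44.9% and 28.6%, were near that background. In yDucts 21 were higher than in Acini and 12 lower, or 42.9% and 24.5%, beside 43.6% and 32.6% of all genes tested. Gpx5, among the lower calls of both comparisons, met the filter only through its Acini arrays. The median difference of the 49 genes was 0.57 in Ducts and 0.74 in yDucts, against 0.20 and 0.24 over all genes tested. The number of calls thus did not set these genes apart, and the single genes and their sizes follow. The extent of the higher calls rested on scaling: they made up 61.1% of the calls among the 49 genes in Ducts as deposited, 51.5% after quantile normalization, 41.9% after cyclic loess and 66.7% after centring arrays on their medians, while over all genes the share went from 56.3% to 44.0%, 41.4% and 63.6%. In yDucts the shares were 63.6%, 50%, 44.4% and 70.6% for the 49 genes and 57.2%, 44.9%, 43.0% and 64.7% for all genes. The median difference over all genes fell from 0.20 to -0.15 and -0.17 under quantile and cyclic loess scaling in Ducts. In yDucts it fell to -0.16 and -0.15. The median of the antioxidant genes fell too, to -0.12 and -0.34 in Ducts and to -0.03 and -0.20 in yDucts. Under cyclic loess, where 48 of them were tested, it thus lay below that of all genes. For a gene whose call against Acini changed under quantile or cyclic loess scaling, the values under both are given with it. Centring the arrays on their medians lost the calls of Gstm6 in both organoids and of Srxn1 in yDucts, and added increases of Gsto2, Nqo1, Txn1 and Txn2 in Ducts and of Gclc, Gpx8 and Gstt3 in yDucts. Both organoids were set against the same 4 Acini arrays, so that their differences from Acini share the control, and they are given side by side.

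**Figure D1:**
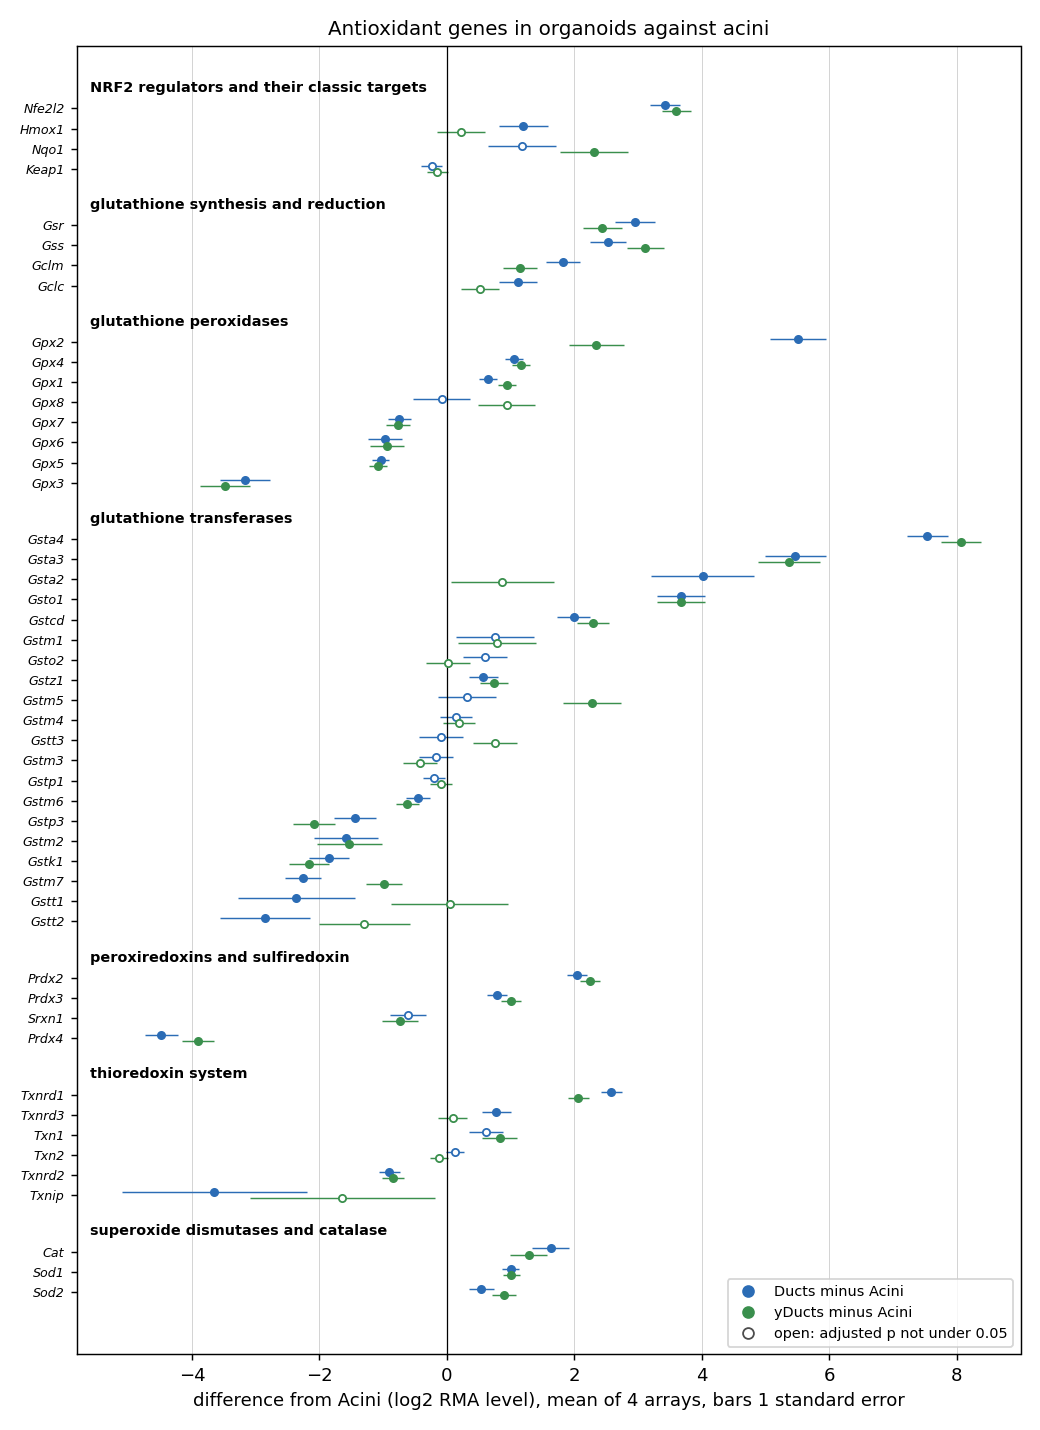
Difference of Ducts (blue) and yDucts (green) from Acini on the log2 scale for the 49 tested antioxidant genes, grouped by role, as measured means of 4 arrays with bars of 1 standard error; filled points were called. Gsta4 lies farthest to the right at 7.54 and 8.07 and Prdx4 farthest to the left at -4.48 and -3.91.

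Nfe2l2, which encodes NRF2, was among the genes that rose most. Its levels were 8.03, 8.32, 8.40 and 7.29 on Acini A to D, 11.25, 11.23, 11.62 and 11.63 on Ducts and 11.55, 11.84, 11.75 and 11.31 on yDucts. Every organoid array lay above every Acini array, and the 2 organoid groups overlapped. The difference from Acini was 3.42 (SE 0.23, 10.7-fold, adjusted p = 5.72e-08) in Ducts and 3.60 (12.1-fold, adjusted p = 3.57e-08) in yDucts. Its second, dim probe set moved the same way by 0.35 in both.

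Keap1, the substrate adaptor that sends NRF2 for degradation, could not be given a direction, because its probe sets disagreed and its calls changed with scaling. The brighter one read 8.37, 7.64, 7.99 and 8.13 on Acini, 7.88, 7.87, 7.86 and 7.56 on Ducts and 7.87, 7.75, 8.01 and 7.90 on yDucts, with overlapping groups and differences of -0.24 and -0.15 that were not called. The same probe set was called lower at -1.12 and -1.30 in Ducts and at -1.04 and -1.21 in yDucts under quantile and cyclic loess scaling, and at -0.37 in Ducts without Acini B (adjusted p = 0.0386). The other one had means of 5.72 (Acini), 7.17 (Ducts) and 7.60 (yDucts), which are differences of 1.46 and 1.88.

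Nqo1 encodes the quinone reductase that is widely used as a readout of NRF2. It was dim in Acini, at 3.90, 3.71, 3.95 and 2.73, of which 2 arrays lay above their 30th percentile. Ducts gave 3.59, 6.14, 4.71 and 4.56, and yDucts gave 6.93, 4.65, 6.12 and 5.84. All yDucts arrays were above Acini, at least 4.17-fold by the means with dim arrays raised to their percentile (adjusted p = 0.00162), whereas Ducts overlapped Acini and the difference of 1.18 missed the threshold (adjusted p = 0.0605). It passed without Ducts A, at 1.56 (adjusted p = 0.0167), at 1.18 without yDucts A or B (adjusted p = 0.0493 and 0.0388), and at 1.5 and 1.38 under quantile and cyclic loess scaling.

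Hmox1, the inducible haem oxygenase, behaved in another way. Acini gave 5.54, 5.58, 5.30 and 6.13, Ducts 5.87, 6.10, 7.61 and 7.78, and yDucts 5.85, 5.80, 5.89 and 5.90. Ducts C and D were the only arrays above 7, and Ducts A and B lay within the range of Acini. The mean difference of Ducts from Acini was called at 1.20 (2.30-fold, adjusted p = 0.0113), but the call was lost at 0.35 when Ducts C and D were left out and at 0.64 and 0.56 under quantile and cyclic loess scaling. The difference of yDucts was 0.22 (adjusted p = 0.601).

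The 4 genes of glutathione synthesis and reduction were all called higher in Ducts as deposited, and all but Gclc in yDucts, but scaling ended the call of Gclc in Ducts and that of Gclm in yDucts. Gclm read 8.10, 8.61, 8.68 and 8.12 on Acini, 9.58, 10.74, 9.98 and 10.48 on Ducts and 9.97, 9.05, 9.56 and 9.55 on yDucts. No organoid array overlapped Acini, and the differences were 1.82 (3.52-fold, adjusted p = 4.52e-05) and 1.16 (2.23-fold, adjusted p = 0.00162). The latter was 0.29 and 0.04 under quantile and cyclic loess scaling, with no call.

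Gclc, the catalytic partner, was less uniform, with 9.40, 9.38, 9.76 and 9.14 on Acini, 9.5, 10.93, 10.55 and 11.17 on Ducts and 10.19, 9.69, 10.08 and 9.81 on yDucts. Ducts A stayed within the Acini range while the other 3 Ducts arrays lay above it. The difference was called in Ducts (1.12, 2.17-fold, adjusted p = 0.00439) and not in yDucts (0.52, adjusted p = 0.128), and the difference between the organoids themselves was -0.60 (SE 0.30, adjusted p = 0.426). Without Ducts A the last of these was -0.94 and was called (adjusted p = 0.0222), as was that of yDucts from Acini (adjusted p = 0.0253). A second Gclc probe set was 1.425 above Acini in Ducts and 0.90 in yDucts. With it, or with the mean of the probe sets, the difference of yDucts from Acini was called. Under quantile and cyclic loess scaling Gclc in Ducts was at 0.34 and 0.02 above Acini, and in yDucts at -0.29 and -0.57, with no call.

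Gss, which adds glycine to complete glutathione, gave 5.21, 5.91, 5.43 and 5.06 on Acini, 8.02, 8.76, 7.59 and 7.37 on Ducts and 8.58, 8.13, 8.58 and 8.78 on yDucts. Gsr gave 6.43, 6.99, 7.64 and 7.23 on Acini, 10.34, 10.75, 9.51 and 9.5 on Ducts and 9.69, 9.29, 9.76 and 9.31 on yDucts. Neither gene had an organoid array within the range of Acini. Gss was 5.79-fold higher in Ducts and 8.66-fold in yDucts (2.53 and 3.12, adjusted p = 4.44e-06 and 7.13e-07). Gsr was 7.74-fold higher in Ducts and 5.43-fold in yDucts (2.95 and 2.44, adjusted p = 2.28e-06 and 1.21e-05).

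**Figure D2:**
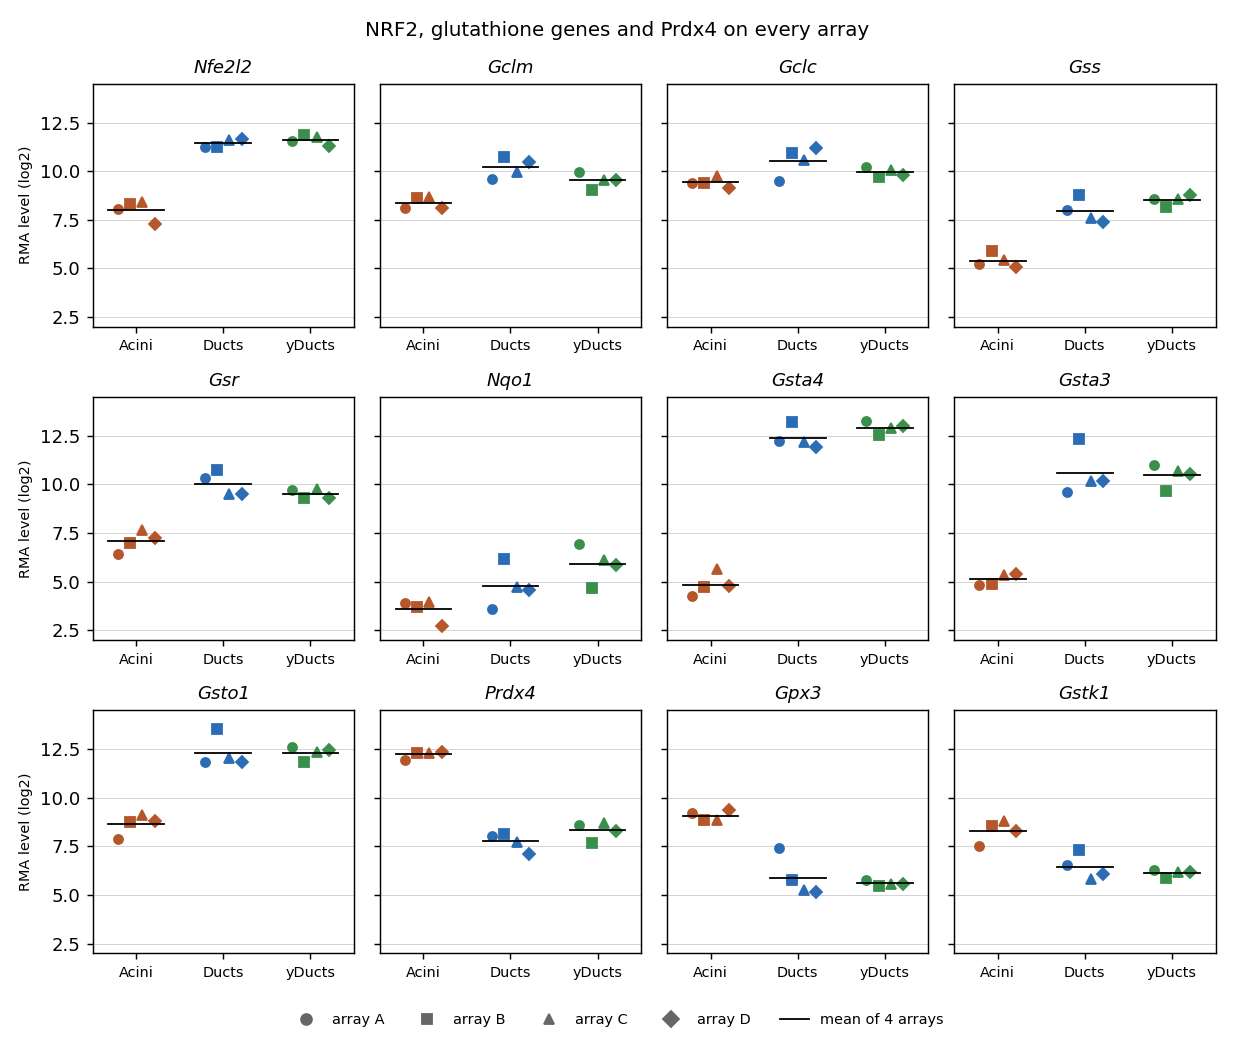
RMA level (log2) on each of the 12 arrays for 12 antioxidant genes; symbols mark arrays A to D of Acini (orange), Ducts (blue) and yDucts (green), and lines mark group means. Gsta4 separates organoids from Acini by the widest gap, Prdx4, Gpx3 and Gstk1 are lower in both organoids, and Gclc and Nqo1 overlap between Ducts and Acini.

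NRF2 binds the antioxidant response element with small MAF proteins, so the promoters of the set were searched for its core, TGACNNNGC on either strand, in RefSeq windows from 250 bases before to 50 after the start site (mouse build GRCm38.p6). All 50 genes matched RefSeq by identifier and 45 had a window, the exceptions being Gclc, Gsr, Gsta4, Gstt2 and Hmox1. The core was found in 8 of the 45 (17.8%), beside 14% of all 27025 genes with windows, so its share in the set was near that of promoters in general. The sequences before the start site are shown for the 7 genes with a match there. They hold the regulator Nfe2l2 itself and genes raised in both organoids (Gsta3 and Txnrd1, and as deposited Gclm and Sod1). The others are the neighbours Gstm5, called higher than Acini in yDucts only, and Gstm7, called lower in both organoids. Capitals mark the core, in the orientation of the gene.
Nfe2l2, chr2:75704855-75704913 (minus strand): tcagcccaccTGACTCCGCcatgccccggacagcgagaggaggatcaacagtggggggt
Gclm, chr3:122245383-122245471 (plus strand): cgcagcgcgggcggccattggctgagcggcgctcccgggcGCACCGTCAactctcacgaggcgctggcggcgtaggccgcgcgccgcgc
Txnrd1, chr10:82859074-82859162 (plus strand): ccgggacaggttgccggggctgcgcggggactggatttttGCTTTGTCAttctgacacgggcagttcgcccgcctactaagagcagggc
Gsta3, chr1:21240424-21240512 (plus strand): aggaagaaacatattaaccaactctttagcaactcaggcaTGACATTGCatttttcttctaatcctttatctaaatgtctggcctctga
Sod1, chr16:90220666-90220754 (plus strand): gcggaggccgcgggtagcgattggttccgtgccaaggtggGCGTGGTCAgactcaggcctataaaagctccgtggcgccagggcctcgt
Gstm5, chr3:107895772-107895853 (plus strand): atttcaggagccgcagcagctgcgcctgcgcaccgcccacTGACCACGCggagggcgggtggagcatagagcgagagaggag
Gstm7, chr3:107931695-107931783 (minus strand): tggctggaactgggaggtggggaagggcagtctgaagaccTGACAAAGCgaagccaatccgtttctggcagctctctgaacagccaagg

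The core began 240 bases before the start in Nfe2l2, 134 in Gclm, 92 in Txnrd1, 121 in Gsta3, 56 in Sod1, 42 in Gstm5 and 129 in Gstm7, where it lay in the second of that gene's windows. The eighth match, in Srxn1, was after the start. The motif GGAATG of the TEAD factors, through which YAP binds DNA, was found on either strand in 6 of the 45 (13.3%), beside 16.6% of all genes with windows, and these were Gpx8, Gstm2, Gstm6, Gstm7, Txn2 and Txnrd2. A match of letters is a description and shows no binding, and enhancers outside these windows were not searched.

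Among the glutathione transferases, a large family that splits into classes by sequence, 6 of the 20 tested were higher and 7 lower in Ducts, and 6 were higher and 5 lower in yDucts. The alpha class held the largest increase of the whole set, that of Gsta4. Gsta4, whose enzyme prefers 4-hydroxynonenal and other products of lipid peroxidation, read 4.24, 4.71, 5.66 and 4.79 on Acini, 12.23, 13.21, 12.19 and 11.93 on Ducts and 13.25, 12.52, 12.90 and 13.01 on yDucts. The lowest organoid array stood more than 6 units above the highest Acini array. Ducts were 7.54 higher (SE 0.32, 186-fold, adjusted p = 7.9e-10) and yDucts 8.07 higher (269-fold, adjusted p = 3.84e-10), and in all 24 alternative settings tried both calls held.

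Gsta3 read 4.84, 4.86, 5.36 and 5.40 on Acini, 9.62, 12.33, 10.19 and 10.20 on Ducts and 11.02, 9.67, 10.71 and 10.53 on yDucts. Ducts B was the highest of the 12 arrays, and the organoid groups overlapped each other but not Acini. The differences were 5.47 (44.3-fold, adjusted p = 5.07e-07) and 5.37 (41.3-fold, adjusted p = 5.96e-07).

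Gsta2, the third alpha member, did not follow the other two. Acini gave 4.78, 2.79, 3.64 and 4.32, Ducts 5.28, 9.70, 8.17 and 8.43, and yDucts 6.22, 3.57, 4.65 and 4.57. Ducts B, C and D were high, and Ducts A lay between the yDucts arrays. Ducts differed from Acini by 4.01 (16.1-fold, adjusted p = 0.000597) and yDucts by 0.87 (adjusted p = 0.338), while the difference between the organoids, -3.14 (SE 0.81), just missed the threshold (adjusted p = 0.0571) and passed it without Ducts A (-4.01, adjusted p = 0.00226). A probe set shared by Gsta1, Gsta2 and Gm3776 carried several symbols and was left out, and similar transferases may not be told apart by every probe set.

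Gsto1, of the omega class, whose enzyme also reduces dehydroascorbate, read 7.90, 8.75, 9.09 and 8.81 on Acini, 11.82, 13.56, 12.02 and 11.85 on Ducts and 12.61, 11.82, 12.33 and 12.47 on yDucts. No organoid array overlapped Acini, and the increase was 12.8-fold for Ducts (adjusted p = 1.82e-06) and 12.7-fold for yDucts (adjusted p = 1.78e-06). Its neighbour Gsto2 was dim, at 2.38 to 4.46 over the 12 arrays, and was not called as deposited, while quantile scaling called it higher in Ducts at 0.99 and under cyclic loess it did not pass the filter. Gstcd, a protein with a transferase-like domain, rose 3.97-fold and 4.91-fold (1.99 and 2.29). The zeta member Gstz1, which acts in tyrosine breakdown, was called higher by 0.57 and 0.74, but turned to -0.16 and -0.03 under quantile and to -0.28 and -0.11 under cyclic loess scaling.

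The mu class lies side by side on chromosome 3 in the order Gstm5, Gstm7, Gstm6, Gstm3, Gstm2, Gstm1, Gstm4 (RefSeq, GRCm38.p6), with no other coding gene between them. Its members went different ways. Gstm5, at one end, read 8.27, 8.93, 8.91 and 8.89 on Acini, 9.96, 10.31, 7.99 and 8.0 on Ducts and 11.17, 10.95, 11.21 and 10.77 on yDucts. The yDucts arrays were above all others, 4.84-fold over Acini (2.27, adjusted p = 0.000602), whereas Ducts A and B lay above Acini and Ducts C and D below it, for a mean difference of 0.32 that was not called (adjusted p = 0.544).

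Gstm7, next to it, was lower in organoids, with 5.69, 6.57, 6.67 and 5.91 on Acini, 3.81, 4.61, 3.98 and 3.42 on Ducts and 5.53, 4.84, 5.19 and 5.34 on yDucts. The 3 groups did not overlap, with yDucts between the other two. It was 4.77-fold lower in Ducts (-2.25, adjusted p = 1.05e-05) and 1.98-fold lower in yDucts (-0.98, adjusted p = 0.00617).

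Gstm2 was lower in both, at 9.19, 9.29, 9.63 and 9.55 on Acini, 6.07, 8.51, 8.64 and 8.12 on Ducts and 8.46, 6.75, 8.09 and 8.24 on yDucts. All organoid arrays were below Acini, Ducts A and yDucts B the farthest, and the differences were -1.58 (2.99-fold, adjusted p = 0.0124) and -1.53 (2.89-fold, adjusted p = 0.0147). Gstm6, at dim levels of 3.66 to 4.81, was called lower with differences of -0.45 and -0.62, and neither was called under quantile (-0.14 and -0.27) or cyclic loess scaling (0.08 and -0.07). Gstm1, Gstm3 and Gstm4 were not called in either comparison as deposited, but Gstm3 in yDucts, at -0.43, was called lower under quantile and cyclic loess scaling (-0.84 and -0.74). For Gstm1 the brightest probe set differed by 0.76 and 0.79 from Acini, with Ducts A at 7.74 against 10.70, 11.36 and 11.10 on the other Ducts arrays, and its 4 probe sets were of mixed sign.

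**Figure D3:**
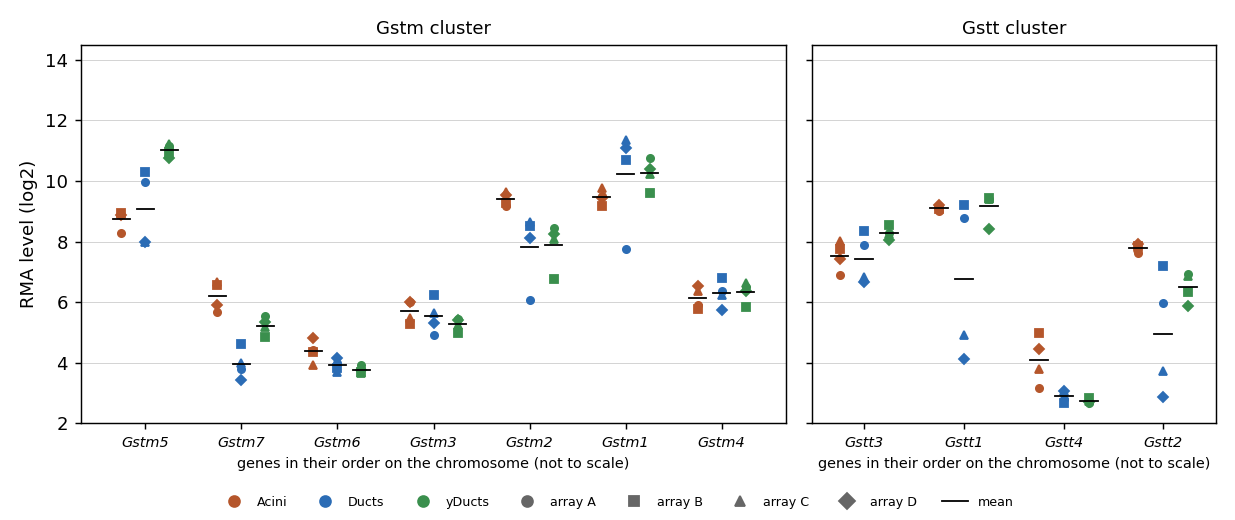
RMA level (log2) on each array for the Gstm genes of chromosome 3 and the Gstt genes of chromosome 10, in chromosome order and not to scale; colours mark groups, symbols arrays A to D and lines group means. Gstm5 is highest in yDucts while the adjacent Gstm7 is highest in Acini, and Gstt1 and Gstt2 split Ducts A and B from Ducts C and D.

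The theta class forms a second cluster, on chromosome 10 in the order Gstt3, Gstt1, Gstt4, Gstt2. Gstt1, which acts on small halogenated compounds, read 9.01, 9.06, 9.19 and 9.21 on Acini, 8.77, 9.21, 4.91 and 4.14 on Ducts and 9.40, 9.44, 9.40 and 8.40 on yDucts. Ducts A and B kept the level of Acini, and Ducts C and D were lower by more than 4 units. The called difference of Ducts from Acini, -2.36 (SE 0.92, 5.13-fold, adjusted p = 0.0324), fell away to -0.13 when Ducts C and D were left out, and was -4.59 when A and B were. Leaving out any 1 of the Acini arrays, Ducts C or Ducts D also lost the call, at differences of -2.40 to -1.49.

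Gstt2 showed the same split, with 7.63, 7.84, 7.80 and 7.93 on Acini, 5.99, 7.18, 3.74 and 2.88 on Ducts and 6.93, 6.35, 6.86 and 5.88 on yDucts. All organoid arrays were below Acini, Ducts C and D the farthest, and Ducts differed by -2.85 (7.22-fold, adjusted p = 0.00275) and yDucts by -1.29 (adjusted p = 0.113), with calls at -2.11 and -2.06 under quantile and cyclic loess scaling. Without Ducts B the difference of yDucts from Ducts was called for Gstt1 (3.22) and Gstt2 (2.30). Gstt3 differed by -0.09 in Ducts and 0.76 in yDucts (adjusted p = 0.827 and 0.0621), with Ducts A and B at 7.89 and 8.35 and Ducts C and D at 6.84 and 6.68. In Ducts it was called lower under quantile (-0.94) and cyclic loess scaling (-1.14), and in yDucts it was at -0.14 and -0.29.

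Gstk1, a peroxisomal and mitochondrial transferase, was lower in both organoids, with 7.52, 8.54, 8.80 and 8.27 on Acini, 6.54, 7.31, 5.83 and 6.06 on Ducts and 6.26, 5.88, 6.16 and 6.17 on yDucts. The groups did not overlap Acini, and the differences were 3.60-fold (-1.85, adjusted p = 0.000172) and 4.48-fold (-2.17, adjusted p = 4.48e-05). In the pi class, Gstp1 was at 12.11 to 12.93 on all 12 arrays and was not called (-0.20 and -0.09, adjusted p = 0.288 and 0.632), but it was called lower under quantile (-0.59 and -0.46) and cyclic loess scaling (-1.13 and -1.01). Its near neighbour Gstp3 fell, from 6.34, 5.57, 6.0 and 5.70 on Acini to 5.27, 4.96, 4.08 and 3.56 on Ducts and 3.62, 3.59, 3.88 and 4.18 on yDucts. No organoid array of Gstp3 reached the Acini range, and it was 2.70-fold lower in Ducts (adjusted p = 0.00151) and 4.24-fold lower in yDucts (adjusted p = 7.98e-05).

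Glutathione peroxidases split evenly, with 3 of 8 higher and 4 lower in each comparison with Acini. Gpx2, the gastrointestinal peroxidase of epithelial cells, read 5.34, 5.15, 5.58 and 5.67 on Acini, 9.95, 12.59, 10.54 and 10.71 on Ducts and 7.95, 7.23, 7.86 and 8.09 on yDucts. The 3 groups did not overlap, and Ducts B was the highest. Ducts were 45.6-fold above Acini (5.51, SE 0.43, adjusted p = 2.01e-07) and yDucts 5.09-fold (2.35, adjusted p = 0.000308).

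Gpx3, the secreted plasma peroxidase, went the other way, with 9.23, 8.84, 8.85 and 9.35 on Acini, 7.43, 5.78, 5.23 and 5.14 on Ducts and 5.76, 5.47, 5.57 and 5.56 on yDucts. Ducts A stood above the other organoid arrays and below all Acini. It was 9.02-fold lower in Ducts (-3.17, adjusted p = 1.03e-05) and 11.1-fold lower in yDucts (-3.48, adjusted p = 4.52e-06). The endothelial, stromal, islet and macrophage markers given above were also lower in organoids, apart from Cd68. Whether other cells had a part in the difference of Gpx3 was not tested.

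The lipid peroxidase Gpx4 rose 2.07-fold in Ducts and 2.24-fold in yDucts, with calls at 0.40 and 0.49 under quantile scaling and none at 0.02 and 0.14 under cyclic loess. The cytosolic Gpx1 was 1.57-fold and 1.93-fold higher as deposited but under quantile scaling it was at 0.04 in Ducts, not called, and at 0.38 in yDucts, called. Under cyclic loess it turned to -0.37, called lower, in Ducts and to -0.06 in yDucts. Gpx5, an epididymal peroxidase, was dim, with 4.35, 3.87, 4.07 and 3.86 on Acini, 2.98, 3.06, 3.02 and 2.93 on Ducts and 2.83, 2.96, 2.95 and 3.09 on yDucts. It lay below the 30th percentile on every organoid array, so it met the filter only through its 4 Acini arrays. A lower level in organoids was thus partly built into its selection, and its calls are no separate evidence of a fall. As deposited, Acini were at least 1.77-fold and at least 1.79-fold higher. These bounds use the percentile of the organoid arrays, which was lower than that of Acini (3.21 and 3.20 against 3.72). Other scalings gave smaller differences that were still called, at -0.58 and -0.60 (quantile) and -0.49 and -0.51 (cyclic loess).

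Gpx6, its olfactory neighbour, read 3.49, 4.59, 5.07 and 4.83 on Acini, 3.60, 3.68, 3.4 and 3.42 on Ducts and 3.54, 3.61, 3.54 and 3.54 on yDucts. Acini A overlapped both organoids, and the differences of -0.97 and -0.94 were called (adjusted p = 0.0052 and 0.00632), but not under quantile (-0.68 and -0.64) or cyclic loess scaling (-0.42 and -0.37). Gpx7, an endoplasmic reticulum peroxidase, was at least 1.58-fold and at least 1.62-fold lower as deposited, at levels of 2.99 to 4.39, and was not called under quantile (-0.28 and -0.29) or cyclic loess scaling (-0.19 in both). Gpx8, the other one of that compartment, was not called (-0.08 and 0.94), and Ducts A at 6.56 stood above the 4.23 to 4.70 of the other Ducts arrays.

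Peroxiredoxins showed the largest decrease of the set. Prdx4, the peroxiredoxin of the endoplasmic reticulum, where it serves oxidative protein folding, read 11.95, 12.31, 12.29 and 12.37 on Acini, 8.05, 8.11, 7.71 and 7.13 on Ducts and 8.61, 7.68, 8.70 and 8.30 on yDucts. Every organoid array was more than 3 units below every Acini array. It was 22.3-fold lower in Ducts (-4.48, SE 0.25, adjusted p = 1.18e-08) and 15-fold lower in yDucts (-3.91, adjusted p = 3.85e-08), and all 4 of its probe sets were lower in both. The 8 acinar markers were also lower, as given above, and a link of Prdx4 with them was not tested.

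The cytosolic Prdx2 rose 4.13-fold in Ducts and 4.75-fold in yDucts (2.05 and 2.25, adjusted p = 1.71e-07 and 7.69e-08). The mitochondrial Prdx3 was called higher by 0.79 and 1.01, but turned to -0.33 and -0.11 under cyclic loess and was not called under quantile scaling (-0.06 and 0.16). Prdx1, probed only by sets that also carry the symbol Gm21399, was not a member.

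Srxn1, the sulfiredoxin that repairs over-oxidised peroxiredoxins and a classic NRF2 target, was not called higher in either organoid. It read 7.84, 8.24, 8.77 and 7.83 on Acini, 6.77, 7.80, 7.63 and 8.02 on Ducts and 7.78, 7.11, 7.40 and 7.44 on yDucts. Ducts B and D were near the lowest Acini arrays, and yDucts lay just below Acini. The difference was -0.61 in Ducts (adjusted p = 0.062) and -0.74 in yDucts, where it was called (1.67-fold, adjusted p = 0.0293) but lost in 6 of 24 alternatives, among them leaving out Acini B, Acini C or yDucts B, C or D (-0.74 to -0.54) and centring the arrays on their medians (-0.52). In Ducts it was called without Acini A, Acini D or Ducts D (-0.77 to -0.72). Quantile and cyclic loess scaling called it lower at -1.48 and -1.66 in Ducts and at -1.62 and -1.78 in yDucts.

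In the thioredoxin system, the cytosolic reductase Txnrd1 had the steadiest increase. Its levels were 8.15, 8.07, 8.40 and 8.03 on Acini, 10.34, 10.78, 10.72 and 11.13 on Ducts and 10.23, 10.22, 10.21 and 10.24 on yDucts. The 3 groups did not overlap. Ducts were 5.98-fold above Acini (2.58, adjusted p = 3.29e-08) and yDucts 4.18-fold (2.06, adjusted p = 2.24e-07). The mitochondrial reductase Txnrd2 was lower in both on its brightest probe set (-0.90 and -0.85, 1.87-fold and 1.80-fold, adjusted p = 0.000341 and 0.000538). A dimmer probe set was higher by 0.32 and 0.64, while the rest of its 4 probe sets were lower. With the mean of its probe sets the call in yDucts was lost. Txnrd3, the thioredoxin glutathione reductase known from testis, was called higher in Ducts (0.78, adjusted p = 0.00803), with -0.04 under quantile and -0.12 under cyclic loess scaling, and was not called in yDucts (0.09), where these scalings called it lower (-0.70 and -0.80).

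Txn1, cytosolic thioredoxin, read 10.63, 11.14, 11.28 and 10.82 on Acini, 11.91, 12.33, 11.03 and 11.05 on Ducts and 11.90, 11.57, 11.87 and 11.84 on yDucts. Ducts A and B were the highest arrays with yDucts A, and Ducts C and D lay within Acini. It was called in yDucts (0.83, 1.77-fold, adjusted p = 0.0142) and not in Ducts (0.61, adjusted p = 0.0558), where it passed without Acini C, Ducts C or Ducts D (0.72 to 0.80). In yDucts it was at 0.24 under quantile scaling, not called, and turned to -0.18 under cyclic loess, and its dimmer probe set fell by 1.33 and 1.35. The mitochondrial Txn2 was not called as deposited (0.14 and -0.12), but was called lower under quantile (-0.74 and -0.99) and cyclic loess scaling (-0.98 and -1.24).

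Txnip, which binds thioredoxin and lowers glucose uptake, had the widest spread. Acini gave 12.04, 12.14, 12.31 and 11.99, Ducts 11.27, 12.39, 4.98 and 5.24, and yDucts 11.35, 8.15, 11.33 and 11.10. Ducts A and B and 3 yDucts arrays were within about 1 unit of Acini, yDucts B was lower, and Ducts C and D were lower by far. The called difference of Ducts from Acini, -3.65 (SE 1.45, adjusted p = 0.0355), became -0.29 when Ducts C and D were left out and -7.01 when A and B were, and the call was lost in 10 of 24 alternatives, among them leaving out any 1 of the Acini arrays, Ducts C or Ducts D (-3.69 to -2.49). The difference of yDucts was -1.64 (adjusted p = 0.315). A second Txnip probe set differed by -1.62 in Ducts and by -0.045 in yDucts, and with it the call in Ducts was lost. Ducts C and D were low on it too, at 5.03 and 5.09.

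Catalase and both intracellular superoxide dismutases were called higher in each organoid group as deposited, but under cyclic loess scaling only catalase kept its sign. Cat read 7.79, 8.49, 8.78 and 8.07 on Acini, 9.13, 9.68, 10.31 and 10.54 on Ducts and 9.66, 9.53, 9.67 and 9.40 on yDucts. The organoids lay above Acini, 3.10-fold (1.63, adjusted p = 0.000223) and 2.43-fold (1.28, adjusted p = 0.00139). Under quantile scaling its differences were 0.79, called, and 0.41, not called, and under cyclic loess 0.51 and 0.16 with no call.

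Sod1 gave 10.43, 10.53, 10.63 and 10.82 on Acini, 11.45, 11.57, 11.72 and 11.68 on Ducts and 11.68, 11.49, 11.70 and 11.59 on yDucts. Sod2, the mitochondrial enzyme, gave 9.24, 9.23, 9.41 and 9.16 on Acini, 10.12, 10.09, 9.54 and 9.46 on Ducts and 9.97, 10.55, 10.10 and 10 on yDucts. Both were above Acini on every organoid array, by 2.0-fold and 2.02-fold for Sod1 (adjusted p = 1.87e-05 and 1.7e-05) and by 1.46-fold and 1.86-fold for Sod2 (adjusted p = 0.0196 and 0.000864). The call of Sod2 in Ducts was lost without Ducts A or B (0.44 and 0.45). These increases were of the size of the shift between scalings: under cyclic loess Sod1 was at -0.03 and -0.01, and Sod2 at -0.56, called lower, in Ducts and at -0.21 in yDucts, and under quantile scaling Sod1 kept its calls at 0.36 and 0.35, while Sod2 was at -0.29 and 0.07 with none.

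The last comparison asks how close the reprogrammed yDucts came to native Ducts. Of the 49 genes 2 were called higher in yDucts, 4.08% beside 2.15% of all genes tested, and 1 was called lower, 2.04% beside 0.987%. The median difference of the 49 genes was 0.04, and of all genes 0.00. A difference that was not called is not shown to be absent.

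Gpx2 was the gene that was lower in yDucts. With Ducts at 9.95 to 12.59 and yDucts at 7.23 to 8.09, the groups were apart by almost 2 units, and yDucts were 8.97-fold lower (-3.17, SE 0.43, adjusted p = 0.00137). The call held in all 24 alternatives.

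Gstm5 and Gstm7, the adjacent mu genes, were higher in yDucts. Gstm5 was 3.89-fold higher (1.96, SE 0.46, adjusted p = 0.0362), and the call was lost in 12 of 24 alternatives. Gstm7 was 2.41-fold higher (1.27, SE 0.28, adjusted p = 0.0262), and the call was lost in 8, among them quantile scaling (1.12) and the mean of its probe sets (0.54), since its second probe set differed the other way (-0.18). On the brightest probe set of both genes every yDucts array lay above every Ducts array, and neither was called without Ducts C or D (1.60 for Gstm5, 1.28 and 1.09 for Gstm7) or without yDucts A, C or D (1.90 to 2.04 and 1.17 to 1.28). The call of Gstm5 was also lost without yDucts B or Acini B, C or D (1.96 to 1.99). Gpx2, Gstm5 and Gstm7 were, with Txnrd1 and Txnrd3, the 5 genes of 49 whose Ducts and yDucts arrays did not overlap, or 10.2%, beside 12.3% of all genes tested. The latter pair differed by -0.52 and -0.69 without a call (adjusted p = 0.135 and 0.159).

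**Figure D4:**
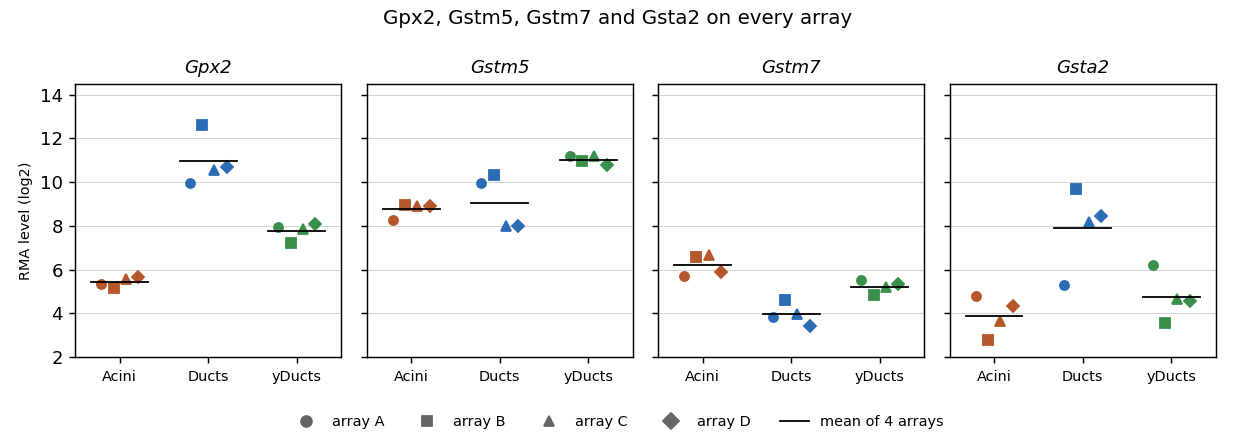
RMA level (log2) on each array for Gpx2, Gstm5, Gstm7 and Gsta2; colours mark groups, symbols arrays A to D and lines means of 4 arrays. Gpx2 is 8.97-fold lower in yDucts than in Ducts without overlap, Gstm5 and Gstm7 are higher, and Gsta2 is lower on average but with Ducts A among the yDucts arrays.

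Many antioxidant genes varied widely between the 4 Ducts arrays, which is given as a description. The SD among Ducts arrays was over 1 for 12 of the 49 genes, or 24.5%, beside 4.76% of all genes tested, against 2 of 49 (4.08% beside 0.640%) in yDucts and 0 of 49 (beside 0.961%) in Acini. The median SD of the 49 genes was 0.56 in Ducts, 0.23 in yDucts and 0.32 in Acini, while that of all genes was 0.23, 0.14 and 0.36. The 12 were Gpx2, Gpx3, Gpx8, Gsta2, Gsta3, Gstm1, Gstm2, Gstm5, Gstt1, Gstt2, Nqo1 and Txnip, of which 5 (Gpx3, Gstm5, Gstt1, Gstt2 and Txnip) were higher on both Ducts A and B than on C and D. Gstm1 showed the reverse. Genes outside the 12 also differed in order between these pairs, such as Gstt3 with the values given above. The share of such orders over all genes tested was not counted, so they are not read as a trait of the set. Ducts B was the highest array for 8 of the 12, and Ducts A the lowest for 6, among them Gsta2, Gsta3, Gpx2 and Nqo1.

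**Figure D5:**
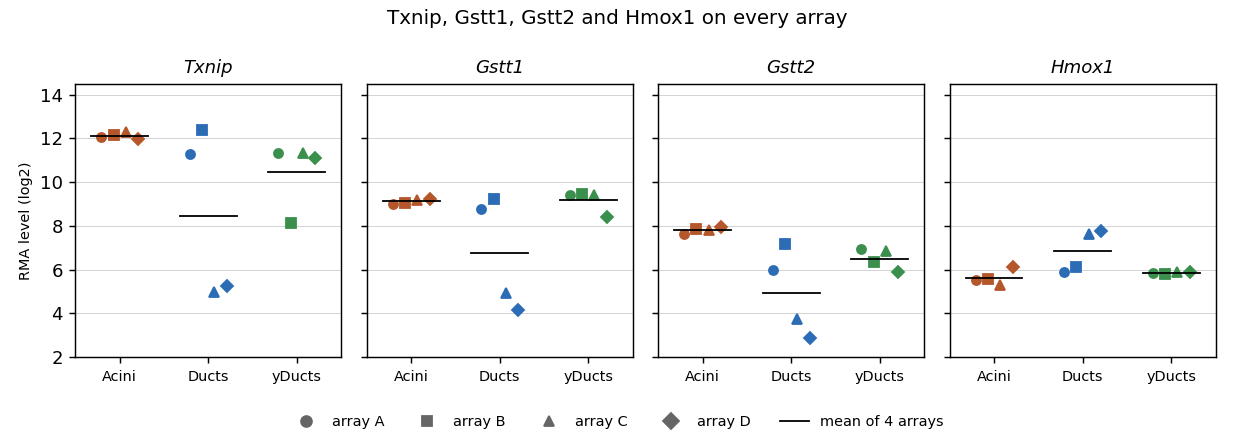
RMA level (log2) on each array for Txnip, Gstt1, Gstt2 and Hmox1; colours mark groups, symbols arrays A to D and lines means of 4 arrays. Ducts C and D are low for Txnip (4.98 and 5.24), Gstt1 and Gstt2 and high for Hmox1 (7.61 and 7.78), while Ducts A and B lie at or near the level of Acini for Txnip, Gstt1 and Hmox1.

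With Ducts A and B left out, 10 of the 49 genes were called higher and 7 lower in yDucts than in Ducts (20.4% and 14.3%), beside 8.62% and 5.92% of all genes tested in that setting. Without Ducts C and D, 0 were called higher and 2 lower, Gpx2 and Gstp3 (4.08%), beside 1.06% and 1.08% of all genes tested. Which pair of Ducts arrays was kept thus decided whether Txnip, Gstt1, Gstt2 and Hmox1 were called between the organoids. The pairs follow the likeness of Ducts C and D in these same values. With 2 Ducts arrays left, and those alike, the spread within Ducts is poorly measured, so these shares are a description. The labels give no batch, passage or mouse for these arrays.

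Related genes outside the set were counted from 4 further lists, beside the 42.7% of all genes called higher and 33.1% called lower in Ducts and the 43.6% and 32.6% in yDucts. The lists were counted on the deposited scale only. Under quantile and cyclic loess scaling the share of all genes called higher was 28.4% and 25.8% in Ducts and 29.2% and 27.1% in yDucts. As the lists were chosen with earlier results of these data known, their shares are a description. Of 22 tested further NRF2 targets and partners, 14 were higher and 3 lower in Ducts (63.6% and 13.6%), and 15 and 3 in yDucts (68.2% and 13.6%), with medians of 0.91 and 0.94. The aldo-keto reductase Akr1b8 was higher by 5.46 and 4.99, the carbonyl reductase Cbr3 by 5.01 and 4.88, Akr1c13 by 3.93 and 4.04 and the epoxide hydrolase Ephx1 by 3.26 and 3.82. None of the 22 was called between yDucts and Ducts.

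Of 28 tested further glutathione genes, 10 were higher and 8 lower in Ducts (35.7% and 28.6%) and 10 each way in yDucts (35.7% each), with medians of 0.15 and -0.10. The export pump Abcc4 was higher by 5.83 and 6.0, Abcc3 by 4.25 and 3.67, and the microsomal transferase Mgst1 by 3.87 and 4.24. Cbs, the first enzyme that makes cysteine from homocysteine, was at -4.18 and -4.06 from Acini and the peptidase Anpep at -3.92 and -3.90.

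Of 13 genes of NADPH supply, which feeds both reductase systems, 4 were higher and 2 lower in Ducts (30.8% and 15.4%) and 6 and 2 in yDucts (46.2% and 15.4%), with medians of 0.32 and 0.25. Malic enzyme Me1 was higher by 5.45 and 5.18, the pentose phosphate enzymes Pgd by 2.90 and 2.54 and Tkt by 2.21 and 2.63, and the folate enzyme Aldh1l1 was at -4.86 and -4.14.

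Of 23 further thioredoxin-fold and redox genes, 11 were higher and 6 lower in Ducts (47.8% and 26.1%) and 14 and 6 in yDucts (60.9% and 26.1%), with medians of 0.17 and 0.59. Sesn1 (-3.35 and -3.13) and the methionine sulfoxide reductase Msrb1 (-3.14 and -2.62) were lower in both. The list held 2 genes called higher in yDucts than in Ducts, 8.70% beside 2.15% of all genes tested. Msrb3, a methionine sulfoxide reductase, read 4.08 to 4.87 on Acini, 4.49 to 5.15 on Ducts and 8.03 to 8.74 on yDucts. Sod3, the extracellular superoxide dismutase, read 4.66 to 5.14 on Acini, 3.24 to 4.75 on Ducts and 6.97 to 7.70 on yDucts. In both genes the yDucts arrays lay above all others, by 3.67 over Ducts in each (adjusted p = 8.49e-07 and 1.81e-05) and by 3.80 and 2.35 over Acini. Ducts differed from Acini by 0.12 for Msrb3, not called, and by -1.32 for Sod3, called lower (adjusted p = 0.00165).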

How the data were processed

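Total RNA of 12 samples (Acini, Ducts and yDucts, 4 each) was hybridised to 1-colour arrays with 45101 probe sets. The deposited values are log2 expression levels that the authors computed with RMA, per the submitters' processing notes. Sources used here do not state its version. RMA brings arrays that are run together to one distribution, which can shift genes when many change one way. The deposited distributions were not identical, with 30th percentiles of 3.72 ± 0.06 (SD, n = 4) in Acini, 3.21 in Ducts and 3.20 in yDucts.

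Probe sets with 1 gene symbol in the platform annotation were kept (34958). The brightest by mean over all 12 arrays stood for each of 18194 genes, and those above the 30th percentile of their array on at least 4 arrays were tested (14991). limma 3.58.1 in R 4.3.3 fitted a group-means model to all 12 arrays, with moderated two-sided tests of 3 contrasts and Benjamini-Hochberg adjustment over all genes. SE is the moderated standard error. Where a group mean lay below the percentile, its arrays were raised to it and the fold was given as a lower bound on the deposited scale. The procedure was tested on simulated data.

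Values on every array are given for the marker genes Gsta4 and Gpx2, for 15 regulators and core enzymes, and for the 8 largest called increases and decreases of each comparison. From the other lists up to 4 genes per comparison with the largest called differences are named. The members, lists and rules were chosen with earlier results of these data known. Alternatives were 3 scalings, 2 filters, 2 ways of representing a gene, array weights, a fit of 2 groups, a block by replicate letter and leaving out arrays. The number of arrays limits the precision. Promoter windows and gene order came from RefSeq (GRCm38.p6).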

Additional observations from a re-analysis of the deposited data

Results flagged for a closer look

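Within the 3 groups of 4 arrays, 93 sets of values of the 31 genes given on every array were examined for a single array far from the other 3, by the gap to the nearest array as a share of the whole range. Chance gives about 1 in 20, and 6 (6.45%) passed Dixon's limit. Txnip was at 8.15 on yDucts B against 11.10 to 11.35 on the other yDucts arrays (share 0.922). Gstt1 was at 8.40 on yDucts D, with the others at 9.40 to 9.44 (0.962). Gsto1 was at 13.56 on Ducts B, above 11.82 to 12.02 (0.885). Gstm5 was at 8.27 on Acini A, below 8.89 to 8.93 (0.939). Keap1 was at 7.56 on Ducts D, below 7.86 to 7.88 (0.938). Gpx6 was at 3.61 on yDucts B, with the other 3 arrays tied at 3.54 (share 1), a dim gene and a gap of hundredths.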

How the results depend on the processing

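The counts of genes called lower against Acini stayed within 1.5 times under every alternative run. Under cyclic loess 13 genes rather than 22 were called higher in Ducts and 12 rather than 21 in yDucts. The count called higher in yDucts than in Ducts, 2 as reported, was 1 after quantile normalization, 1 with the mean of all probe sets, 1 when only both organoid groups were fitted, 17 with array weights, 10 without Ducts A and B, 0 without Ducts C and D, and 0 to 4 when single arrays were left out. The count called lower, 1 as reported, was 9 with array weights, 7 without Ducts A and B, 2 without Ducts C and D, and 1 to 4 when single arrays were left out. Over all genes tested these shares moved too, from 2.15% higher and 0.987% lower to 21% and 20.2% with array weights (antioxidant genes 34.7% and 18.4%), 8.62% and 5.92% without Ducts A and B, and 1.06% and 1.08% without Ducts C and D. Under quantile and cyclic loess scaling 10 and 11 calls of Ducts against Acini were lost and 7 and 6 gained, and 9 and 12 of yDucts lost and 6 and 6 gained, while Gpx1 and Sod2 in Ducts were called the other way under cyclic loess. Same-letter deviations correlated at -0.35 to 0.13 and those of other letters at up to 0.37. With 4 arrays a group this cannot decide whether a letter stands for a shared mouse or batch. A replicate block by letter left 1 gene higher in yDucts than in Ducts (Gstm5 was lost) and moved no other count by over 1.5 times.

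Of single genes, Gstm5 in Ducts against Acini turned to -0.76 without Ducts A and B. Keap1 turned to 0.61 in Ducts and 0.86 in yDucts with the mean of its probe sets, and to 1.46 and 1.88 with the more variable one. Under cyclic loess Sod1 turned to -0.026 and -0.0083, Sod2 to -0.56 and -0.21 and, in yDucts, Txn1 to -0.18. Txn1 was at -0.26 there with the mean of its probe sets, and Sod2 in Ducts at -0.29 after quantile normalization. The cause was not tested. Of 24 genes with several measured probe sets, 7 in Ducts and 6 in yDucts had probe sets of mixed sign against Acini. Dim genes (Gpx5, Gpx6, Gpx7, Gstm6) were limited by background, and these 4 were not among the calls with a filter at the 50th percentile.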
